A study of Sus scrofa with 2 samples.

Results

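Fibrillar collagens are the rope-forming proteins of connective tissue. The data described here are the reads of 4 stretches of the pig genome that are candidates for the genes of 4 collagen chains: chr9:69420490-69456812 (candidate COL1A2), chr12:24667493-24690234 (candidate COL1A1), chr15:88041536-88081132 (candidate COL3A1) and chr15:88096017-88149340 (candidate COL5A2). The spans were chosen by measured values, namely the ratio and number of reads in fetal fibroblasts against embryonic germ cells, and named because their extent and order fit these genes, so the difference between the libraries at these spans is a description and supports nothing further. A read belongs to a span if its start lies within it. Of the reads outside the chromosome 6 block from 245000 to 260000, which the rule leaves out of the totals, 313871 of 9942279 in the fibroblast library (3.16%) and 8003 of 12682180 in the germ cell library (0.0631%) started in the 4 spans.

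Every fibrillar collagen chain carries a long run of the repeat Gly-X-Y, which lets 3 chains wind into a triple helix. COL1A1 encodes the alpha 1 chain and COL1A2 the alpha 2 chain of type I collagen, the main collagen of skin, bone and tendon, whose helix holds more alpha 1 than alpha 2 chains. COL3A1 encodes the only chain of type III collagen, found with type I in soft tissues, and COL5A2 encodes the alpha 2 chain of type V collagen, which joins type I fibrils and limits their width. Fibroblasts produce all of these. The chains are made as procollagens, and a globular domain at the carboxyl end, the C-propeptide, brings the chains together before it is cut off. A feature of these genes is that the helix is encoded by many short exons whose lengths are multiples of the 9 bases that encode 1 Gly-X-Y triplet, most often 54 bases, and otherwise mainly 45, 99, 108 or 162.

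The series compared poly(A) RNA of 2 primary cultures from pig embryos, taken at some point between day 17 and day 24 of gestation, with 1 library each. Embryonic germ cells (pEGC) were colonies from primordial germ cells of the hindgut or the genital ridge area, seeded on STO feeder cells (mouse fibroblasts blocked with mitomycin C) in medium with 3 growth factors, namely 10 ng/ml of LIF, 10 ng/ml of SCF and 3 ng/ml of bFGF. They were separated from feeder and somatic cells with collagenase and a mesh at first passage. Fetal fibroblasts (pFF) are labelled as such, with the same growth text and no culture of their own described. Per the labels the parents of both were Danish Landrace sows and Yorkshire boars, while the series title names mini pigs. Each file held 14324517 reads of 34 bases, with 49.8% (pEGC) and 49.5% (pFF) on strand F. The chromosome 6 block took 11.5% of the pEGC and 30.6% of the pFF reads. With 1 library per culture there is no measure of the spread between cultures, so no p-value is given, and every interval below is an exact 95% interval (Clopper-Pearson) that covers counting error only. The reads carry no molecular identifiers and may repeat the same molecule, so even that error is understated. Fewer cells that express a gene and less RNA per cell cannot be told apart in bulk RNA. The files name no genes, so the labels of the 2 cultures could not be checked against marker genes.

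The first question was whether the 4 spans look like collagen genes at all. In spliced RNA a read placed without a gap lies largely inside 1 exon, so dense reads pile up in blocks. Their widths can approximate exon lengths, but were not checked against known exons of these files. A block was taken as a run of overlapping reads from positions with at least 5 read starts in the 2 libraries together, and with at least 5 such positions. The COL1A2 candidate held 50 blocks, the COL1A1 candidate 43, the COL3A1 candidate 43 and the COL5A2 candidate 38, or 174 in all. Most were very short: the median width was 58 bases in the COL1A2 and COL1A1 candidates, 83 in the COL3A1 candidate and 78 in the COL5A2 candidate. Between neighbouring blocks lay a median of 411 bases in the COL1A2 candidate, 160.5 in the COL1A1 candidate, 535.5 in the COL3A1 candidate and 1016 in the COL5A2 candidate. The 4 spans are thus arrays of short exon-like pieces, tightest in the COL1A1 candidate and widest spaced in the COL5A2 candidate.

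The widths of the blocks clustered near the lengths known for collagen helix exons. Width played no part in the choice of the spans. Of the 157 blocks of 35 to 200 bases, 73 lay within 2 bases of 45, 54, 99, 108 or 162 (46.5%, interval 38.5 to 54.6), against 19% of the 29549 blocks of that size in the whole genome. The share was 22 of 46 in the COL1A2 candidate, 16 of 41 in the COL1A1 candidate, 20 of 37 in the COL3A1 candidate and 15 of 33 in the COL5A2 candidate. Taken exactly, the widths did not stand out: 5.10% of the members and 3.87% of all blocks had one of the 5 lengths, and 13 of 157 members against 3281 of 29549 blocks had a width that was any multiple of 9, a smaller share. The peaks sat a few bases above the exon lengths, with 42 of the 157 blocks 56 to 58 bases wide. With 0 to 4 bases added to each length, a rule chosen after the widths had been seen, 100 of the 157 member blocks qualified (63.7%, interval 55.6 to 71.2) against 19.2% of all blocks. By this rule 53 members were near 54 bases (33.8% of members, 5.84% of all blocks), 20 near 45, 14 near 108, 12 near 99 and 1 near 162. The cause of the added bases was not tested.

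**Figure D1:**
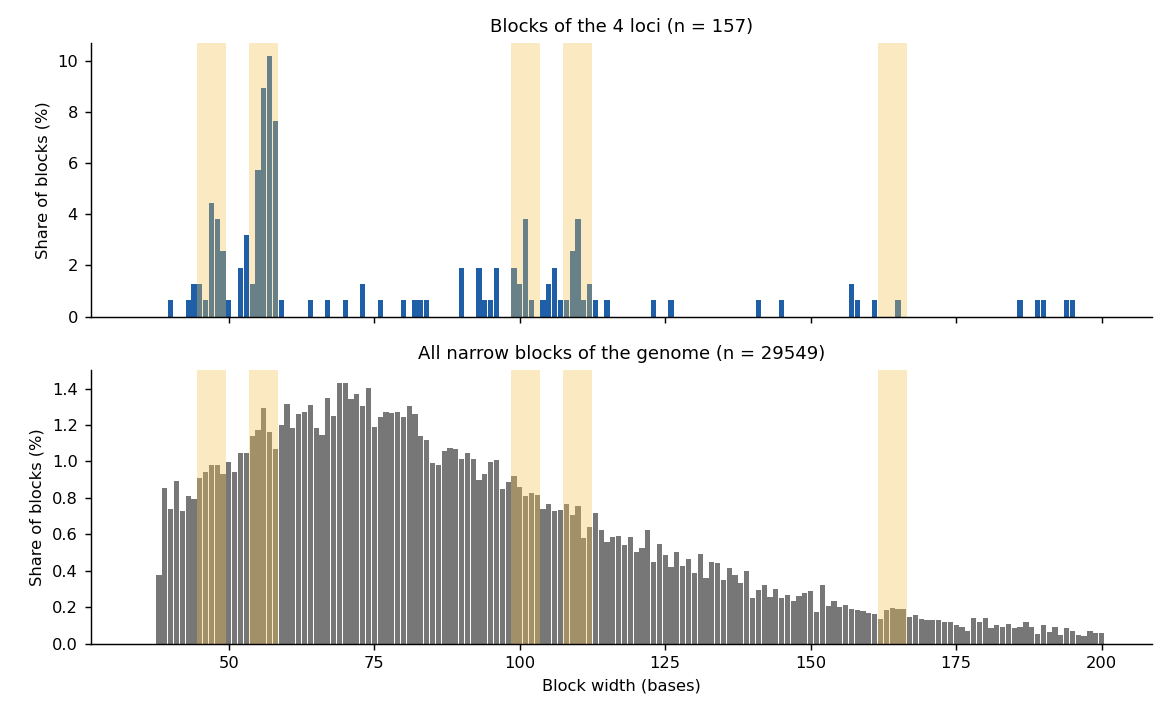
Width of exon-like blocks in bases (x axis) against the share of blocks in percent (y axis), for the 157 narrow blocks of the 4 loci (top) and all 29549 narrow blocks of the genome (bottom). Shaded bands run from each of 45, 54, 99, 108 and 162 bases to 4 bases above; the member blocks heap up in the bands, most of all at 56 to 58 bases, while the genome as a whole shows a broad hump.

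Runs of such widths were rare elsewhere. In windows of 20 consecutive narrow blocks within 60 kb, at least 11 blocks had a collagen length with 0 to 4 bases added in 80 of 2436 windows (3.28%), and 79 of these 80 touched one of the 4 spans. Inside the spans the count reached 18 of 20 in the COL1A2 candidate, 16 in the COL3A1 candidate, 15 in the COL5A2 candidate and 14 in the COL1A1 candidate, against a median of 3 in the 2334 windows that touched none. Neighbouring windows share most of their blocks, so these counts describe the arrays and are not independent draws. The width rule and the windows were added after the widths of these spans had been seen, so the excess on the spans is partly built in.

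Each span also held 3 consecutive wider blocks in the same order. Counted from the outside, they were 243, 186 and 256 bases wide in the COL1A2 candidate, 249, 194 and 285 in the COL1A1 candidate, 247, 190 and 298 in the COL3A1 candidate, and 243, 189 and 286 in the COL5A2 candidate. Among all 29280 runs of 3 consecutive blocks in the genome, 5 (0.0171%) had an outer block of 240 to 260, a middle one of 180 to 200 and an inner one of 250 to 300 bases; these limits were set after the widths had been seen. The fifth, on chromosome 7 from 20532483 to 20533232, was 1 stretch with gaps of as little as 11 bases, whereas the gaps in the 4 spans were at least 109 bases. Blocks at most 10 bases apart were joined for this search, which in the COL1A1 candidate made 1 of the 3 out of a pair. In fibrillar collagen genes the exons that follow the helix, toward the end of the gene, encode the C-propeptide and are longer than the helix exons. These 3 blocks are called the C-propeptide-like trio below.

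The trio gave each span a direction. In the COL1A2 candidate it lay at the right end, from 69453290 to 69454978, with 46 blocks to its left and 1 very wide block of 972 bases to its right. In the COL3A1 candidate it also lay at the right end, with 37 blocks to the left and 3 blocks, of 621, 382 and 48 bases, to the right. In the COL5A2 candidate the order was mirrored: the trio lay near the left end, with 30 blocks to its right and 5 blocks of up to 679 bases to its left. The COL3A1 and COL5A2 candidates, 14.9 kb apart, therefore have their wide outer blocks facing each other. The gap between them held 125 pFF and 8 pEGC reads. In the RefSeq gene table for the assembly Sscrofa11.1, COL3A1 and COL5A2 are neighbours on chromosome 15 with 0 protein-coding genes between them, COL1A2 is on chromosome 9 and COL1A1 on chromosome 12, as are the candidates. The files are on another assembly: reads lay past the table's last gene on 6 of 19 chromosomes, and the places where the table has COL1A2, COL1A1 and COL3A1 held 1, 1 and 17 pFF reads, while that of COL5A2 held 1080 pFF and 77 pEGC reads. The names therefore remain candidates. Position and order were used to assign them and are no support. The block widths and the trio were not used to assign the names. However, the trio limits, the width rule with added bases and the windows were set after the widths of these spans had been seen. Their hits on these spans are therefore built in at least in part, and are no independent support for the names. The collagen lengths were fixed in the plan, but with earlier results of these data known.

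The COL1A1 candidate did not read as a single gene from end to end. Its trio, from 24681802 to 24682912, lay inside the span, 14.3 kb from the left end and 7.32 kb from the right end, with 15 blocks to its left and 24 to its right. Directly to its left came the widest gap of the span, 7807 bases from 24673995 to 24681801 with 61 pFF and 4 pEGC reads, and no wide outer block like those of the other candidates. On the inner side of the trio, here the right, the block widths alternated as 106, 56, 110, 57, 112 and 58 bases. The order of the trio made this part run from right to left, like the COL5A2 candidate. The left part began with blocks of 231, 195, 99, 70 and 47 bases, a wide pair followed by short ones, as did the COL3A1 candidate with 254, 205, 115, 73 and 47 bases. Both parts had similar library ratios, 304-fold (253 to 370.0) in the 15 blocks left of the gap and 275-fold (236 to 324) in the 28 blocks right of it. Whether the order reflects the assembly used for the files or the genome itself was not tested.

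**Figure D2:**
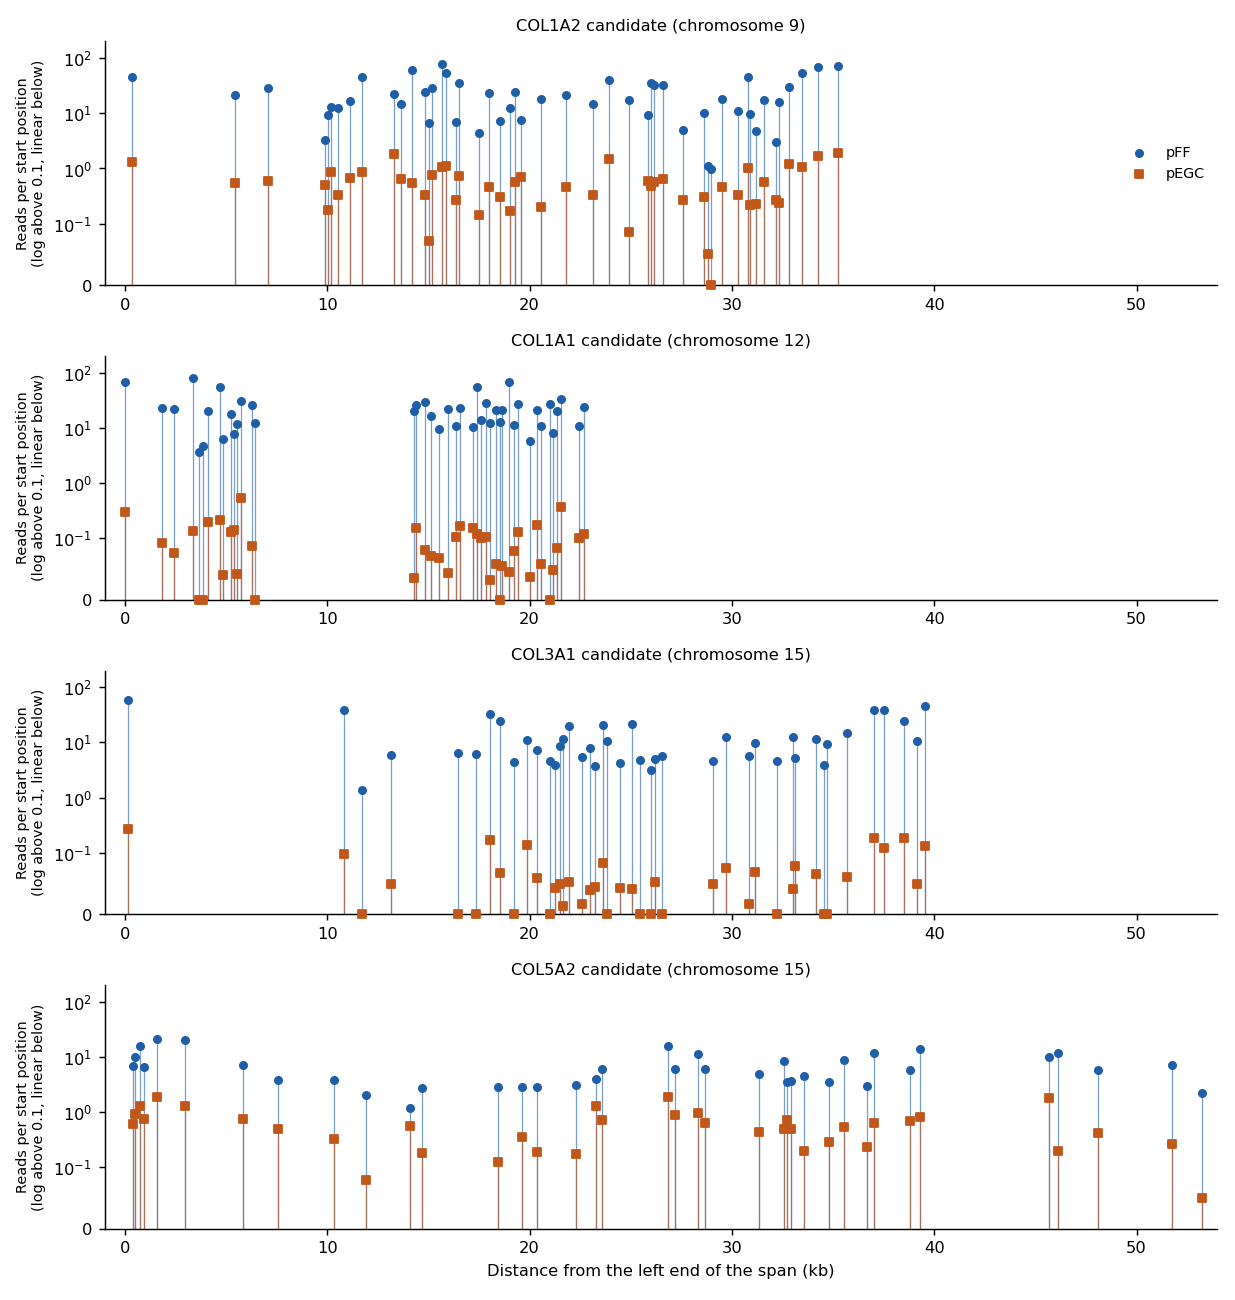
Reads per possible start position of each exon-like block (y axis, logarithmic above 0.1 and linear below) against the distance of the block from the left end of its span in kb (x axis), in pFF (circles) and pEGC (squares), 1 library each. The COL1A1 candidate has an empty stretch of 7.8 kb in its middle, and in every span the pEGC points lie below the pFF points.

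The second question was how abundant each candidate was in the 2 libraries. Levels are in reads per 1000000 reads (RPM) of the library outside the chromosome 6 block. The COL1A2 candidate had 144650 reads in pFF and 3873 in pEGC, or 14549 and 305 RPM, which is 47.6-fold more in pFF (46.1 to 49.2). The COL1A1 candidate had 62211 and 282 reads, 6257 and 22.2 RPM, which is 281-fold more (250.3 to 317). The COL3A1 candidate had 70436 and 343 reads, 7084 and 27.1 RPM, 262-fold more (236 to 292). The COL5A2 candidate had 36574 and 3505 reads, 3679 and 276 RPM, 13.3-fold more (12.9 to 13.8). All 4 candidates were thus abundant in the fibroblast library, while in the germ cell library COL1A1 and COL3A1 had far fewer reads than COL1A2 and COL5A2.

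The make-up of the collagen reads differed accordingly. In pFF the COL1A2 candidate supplied 46.1% of the reads of the 4 spans, the COL3A1 candidate 22.4%, the COL1A1 candidate 19.8% and the COL5A2 candidate 11.7% (interval 11.5 to 11.8). In pEGC the COL1A2 candidate supplied 48.4% (47.3 to 49.5), the COL5A2 candidate 43.8% (42.7 to 44.9), the COL3A1 candidate 4.29% (3.85 to 4.75) and the COL1A1 candidate 3.52% (3.13 to 3.95). The share of the COL1A2 candidate differed little between the libraries, though beyond counting error (45.9 to 46.3 in pFF), that of the COL5A2 candidate was larger in pEGC, and those of the COL1A1 and COL3A1 candidates were smaller there.

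Reads of a whole span cannot be compared between genes, since longer transcripts give more reads and the COL1A1 candidate lacks an outer block. The trio, nearly equal in width in all 4 candidates, gives levels per length. In pFF it had an RPKM (RPM per kb of block) of 4252 in the COL1A2 candidate, 2493 in COL3A1, 1828 in COL1A1 and 901 in COL5A2. In pEGC it had 90.7 in the COL1A2 candidate, 56.45 in COL5A2, 7.62 in COL3A1 and 5.63 in COL1A1. The pEGC values rest on 788, 514, 71 and 52 reads in that order. Per length of the trio, the COL1A2 candidate was 2.33 times the COL1A1 candidate in pFF (2.28 to 2.38) and 16.1 times in pEGC (12.2 to 21.8). The pFF value depends on the blocks used, and the 2 candidates were closer over all blocks (RPKM 2710 and 1581). The type I helix holds more alpha 1 than alpha 2 chains, but protein was not measured here. The COL3A1 candidate was 1.36 times the COL1A1 candidate in pFF (1.33 to 1.40) and 1.35 times in pEGC (0.932 to 1.97). The pEGC interval is wide, rests on 71 and 52 reads and includes 1, so it cannot show that the proportion was kept. Over all blocks COL3A1 lay below COL1A1 in both libraries (RPKM 1408 and 1581 in pFF, 5.30 and 5.51 in pEGC). The COL5A2 candidate was 0.493 times the COL1A1 candidate in pFF (0.478 to 0.508) and 10.0 times in pEGC (7.53 to 13.6), which turns the order of these 2 genes around between the libraries.

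**Figure D3:**
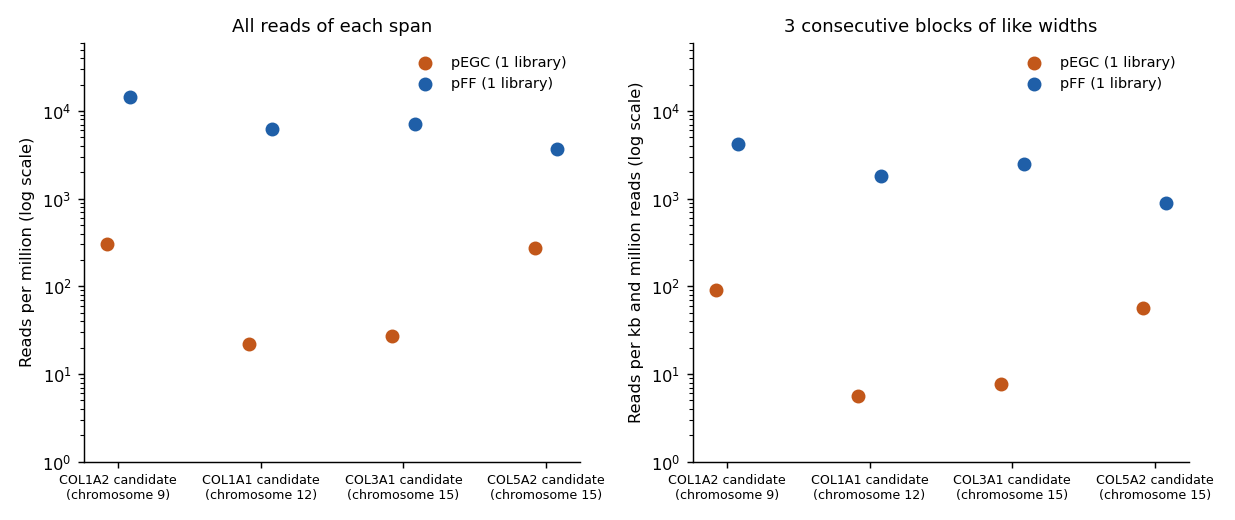
Level of each candidate in pEGC and pFF, 1 library each, on logarithmic axes: all reads of the span in RPM (left) and the C-propeptide-like trio in RPKM (right). In pFF the 4 candidates lie within a factor of 4.72 of each other in the right panel, while in pEGC the COL1A1 and COL3A1 candidates lie far below the other two.

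Over all blocks of a span the order per length was less firm. In pFF the RPKM values were 2710 in the COL1A2 candidate, 1581 in COL1A1, 1408 in COL3A1 and 755 in COL5A2, and in pEGC 55.8 in COL1A2, 52.6 in COL5A2, 5.51 in COL1A1 and 5.30 in COL3A1. With blocks built from positions with at least 10 starts, COL3A1 and COL1A1 changed places in both libraries (1806 and 1711 in pFF, 6.632 and 6.002 in pEGC), and COL5A2 and COL1A2 did so in pEGC (62.75 and 61.9). These neighbours in the order are therefore not set apart by these data. Only the separation of a high and a low pair in pEGC, and of COL1A2 above and COL5A2 below the middle pair in pFF, held with blocks from at least 5 and at least 10 starts, per start position in place of per base, with positions counted once, and in the trio. The first place of COL1A2 in pFF did not hold in all parts of the spans. Its 46 blocks left of the trio had an RPKM of 1292, and its outer block of 972 bases had 6846. The COL1A1 candidate, which lacks such a block, had 2208 left and 1104 right of its trio. With positions counted once the 2 candidates were close in pFF (262.9 and 255.1).

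The ratio of the libraries was then followed along each span, block by block. All 174 blocks had a higher RPM in pFF, as the choice of the spans makes likely. Among blocks with at least 50 pFF reads the ratio had a median of 50.7 in the COL1A2 candidate, 233 in COL1A1, 184 in COL3A1 and 15.0 in COL5A2. A block with 0 pEGC reads, of which there were 18, was set against a floor of 3 reads, so its ratio depends on the floor. This pulls these medians down in the COL1A1 candidate (5 such blocks) and the COL3A1 candidate (12 such blocks).

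Single blocks scattered widely, and many pEGC counts were small. In the COL1A2 candidate the highest ratio belonged to the block from 69445412 to 69445467, with 398 pFF and 2 pEGC reads (254-fold, 69.8 to 2103). The lowest was at 69440052 to 69440108, with 178 and 17 reads (13.4-fold, 8.11 to 23.4). In the COL5A2 candidate they were at 88142132 to 88142179, with 178 and 3 reads (75.7-fold, 25.5 to 371), and at 88119309 to 88119354, with 51 and 17 reads (3.83-fold, 2.17 to 7.07). The highest ratio of the COL1A1 candidate, at 24686469 to 24686523, rested on 1491 pFF reads and 1 pEGC read (1902-fold, 341 to 75170), and that of the COL3A1 candidate, at 88063209 to 88063318, on 869 pFF reads and 1 pEGC read (1108-fold, 198 to 43832). Blocks with 0 pEGC reads cannot be ranked. Those with the lowest ratios against the floor were at 24671160 to 24671206 in COL1A1 and at 88062552 to 88062595 in COL3A1. They had 52 and 51 pFF reads and ratios of 22.1 and 21.7 against the floor, with intervals from 17.35 and 17.01 up. Among blocks with pEGC reads the lowest ratios were 67.6-fold (11.6 to 2720) in COL1A1, from 53 pFF reads and 1 pEGC read, and 85.5-fold (38.9 to 234) in COL3A1, from 402 and 6. For most blocks the interval included the ratio of the whole span, but in COL1A2 and COL5A2 more blocks lay outside it than counting error alone gives. The interval lay above in 9 and below in 7 of the 50 blocks of the COL1A2 candidate, and in 7 and 7 of the 38 blocks of COL5A2. For COL1A1 it lay above in 2 and below in 3 of 43 blocks, and for COL3A1 in 2 and 2 of 43.

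**Figure D4:**
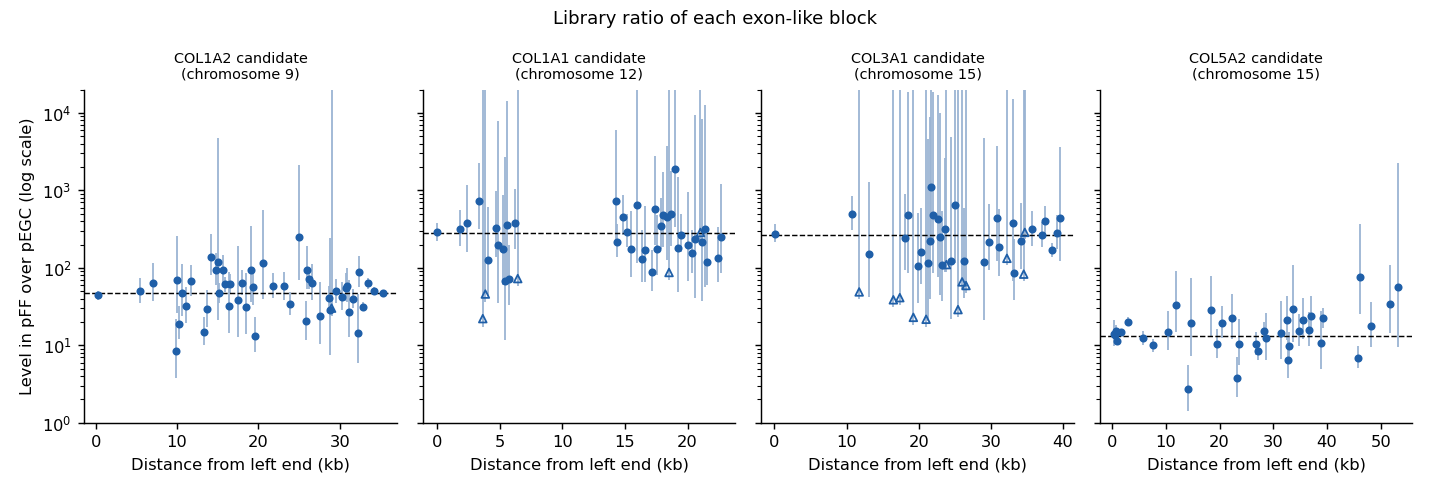
Level in pFF over pEGC of each exon-like block (y axis, logarithmic) against its distance from the left end of the span in kb (x axis). Points are blocks and vertical lines exact 95% counting intervals. Open triangles are blocks with 0 pEGC reads, drawn at the ratio against the floor of 3 reads. The dashed line is the ratio of the whole span (47.6, 281, 262 and 13.3 from left to right). The blocks scatter around the line along the whole length of each span.

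Summed into larger parts, the intervals of the parts overlapped in COL1A2, COL1A1 and COL5A2, which does not show that the parts are equal. The overlap was slight between the left part and the widest block of COL1A2 (49.19 to 49.27). It was also slight between the left part and the trio of COL5A2 (14.59 to 14.63). In the COL1A2 candidate the ratio was 52.2-fold (49.2 to 55.4) left of the trio, 46.9-fold (43.7 to 50.4) in the trio and 47.0-fold (44.8 to 49.3) in the widest block, from 69455754 to 69456725, which alone held 46.9% of the pFF and 48.4% of the pEGC reads in blocks. In the COL5A2 candidate the ratio was 13.97-fold (13.3 to 14.6) left of the trio, 15.96-fold (14.6 to 17.5) in it and 14.2-fold (13.1 to 15.6) to the right. The widest and most read block of this candidate, from 88097626 to 88098304, had 13955 pFF and 1208 pEGC reads. In the COL1A1 candidate the trio had a 324.5-fold ratio (247 to 435) and the blocks to its right 252-fold (209 to 307). Its widest block, from 24682628 to 24682912, had 4158 and 18 reads, and its most read block, the first from 24667507 to 24667737, had 13485 and 60.

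In the COL3A1 candidate the blocks right of the trio, taken as a sum, stood apart from both other parts, whose intervals overlapped. Its outer blocks right of the trio, with 18790 pFF and 127 pEGC reads, had a ratio of 189-fold (158 to 226.5), while the trio had 327-fold (259 to 419) and the 37 blocks to the left, with 31462 and 131 reads, 306-fold (258 to 366.5). The widest of the outer blocks, from 88080060 to 88080680, held 20.9% of the pFF and 32.8% of the pEGC reads in blocks. A larger share of the pEGC than of the pFF reads of this candidate thus lay in this block, whose ratio was 169-fold (140 to 207). The blocks further out had 282-fold (176 to 485) and 440-fold (121 to 3641) ratios, the last from 2 pEGC reads. Their intervals overlapped that of the widest block and also included the ratios of the trio and the left part. With the blocks of each span split into 3 groups of about equal number, the leftmost group of COL3A1 had a 317-fold (259 to 393) and the rightmost a 242-fold ratio (212 to 278). With each position and strand counted once that order turned around (log2 of the leftmost over the rightmost ratio 0.39 with all reads and -0.49 with positions counted once). In COL5A2 the leftmost group had a 14.4-fold (13.8 to 15.0) and the rightmost an 18.2-fold ratio (15.8 to 21.2).

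The shape of the profile was otherwise shared by the libraries. Across the blocks of a span, reads per start position in pEGC and pFF had a Spearman rho of 0.753 in the COL1A2 candidate (50 blocks), 0.721 in COL5A2 (38 blocks), 0.703 in COL3A1 (43 blocks) and 0.491 in COL1A1 (43 blocks). Blocks of 1 transcript share its sequence and library preparation and are not replicates. Within pFF the blocks of 1 span differed far more among themselves than a common transcript level would give, from 0.986 to 77.3 reads per start position in the COL1A2 candidate and from 3.71 to 78.4 in COL1A1. The wide outer blocks were well filled, with 70.5 pFF reads per start position in the last block of COL1A2 and 24.4 in the widest of COL3A1. The first block of each span was read mainly on strand F, which points into the span, with 90.5% of pFF reads in COL1A2, 74.5% in COL1A1, 77.7% in COL3A1 and all reads in COL5A2. The last block had 0.145% on strand F in COL3A1, 44.0% in COL1A2, 43.2% in COL5A2 and 86.7% in COL1A1, so the right ends showed no common pattern. Inner blocks had medians between 44.3% and 55.1%, with single narrow blocks anywhere from 2.13% to 99.2%.

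Positions were used many times over in pFF. The 144650 pFF reads of the COL1A2 candidate lay on 7356 distinct combinations of position and strand, the 3873 pEGC reads on 1542. For COL1A1 the numbers were 4392 and 228, for COL3A1 5059 and 238, and for COL5A2 4351 and 1488. No single position dominated: the most frequent held between 1.23% (COL1A2) and 3.46% (COL5A2) of the pFF reads of a span. Counted once each, positions gave ratios of 7.85 for COL1A2, 31.7 for COL1A1, 34.98 for COL3A1 and 4.81 for COL5A2. Since a position counts once however often it is read, this count cannot exceed the number of positions. The order of the 4 ratios then changed only between COL1A1 and COL3A1.

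Few reads lay between the blocks, where introns would be. In pFF they were 2.48% of the reads of the COL1A2 candidate (2.40 to 2.56), 1.56% of COL1A1 (1.46 to 1.66), 2.79% of COL3A1 (2.67 to 2.92) and 4.77% of COL5A2 (4.56 to 5.00). In pEGC they were 4.29% of COL1A2 (3.67 to 4.97), 3.55% of COL1A1 (1.71 to 6.42), 4.08% of COL3A1 (2.25 to 6.75) and 11.7% of COL5A2 (10.6 to 12.8). The share was thus larger in pEGC for COL1A2 and COL5A2 beyond counting error. For COL1A1 the pEGC interval rests on 10 reads between blocks and only narrowly cleared that of pFF (1.71 against 1.66). For COL3A1 the pEGC interval, which rests on 14 reads between blocks, included the pFF share. Neither of these 2 differences is firm. Over the whole genome outside the chromosome 6 block, reads that lay in no block made up 56.8% of the pEGC and 42.7% of the pFF reads, the same direction as at these spans, and its part in the difference was not tested. With each position and strand counted once the direction turned around in all 4 candidates (28.5% in pFF and 8.24% in pEGC for COL1A2, 13.5% and 3.51% for COL1A1, 22.3% and 5.04% for COL3A1, 23.7% and 21.7% for COL5A2). Blocks were built mainly from pFF reads, and exons too weak to form a block count as between blocks. The reads between the blocks of the COL5A2 candidate came to 176 RPM in fibroblasts and 32.3 RPM in germ cells. This is 5.43-fold (4.88 to 6.06), against 14.35-fold in its blocks. For COL1A2 they came to 361 and 13.1 RPM, or 27.6-fold (23.6 to 32.4).

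**Figure D5:**
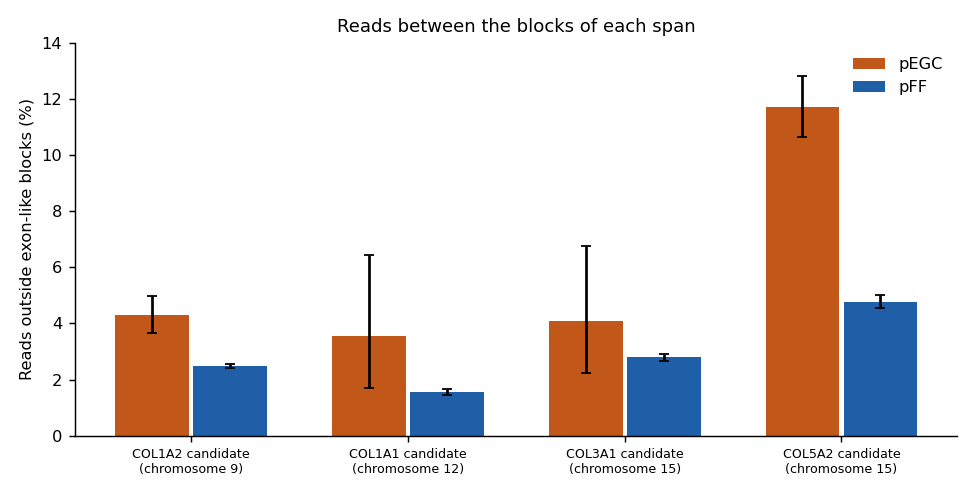
Share of the reads of each span that lay outside exon-like blocks (y axis, percent) for the 4 candidates in pEGC and pFF, 1 library each; bars are the shares and error bars exact 95% counting intervals. The pEGC bar is the higher one in each pair, with the widest gap in the COL5A2 candidate (11.7% against 4.77%).

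Few reads lay next to the spans. Within 10 kb outside the COL1A2 candidate there were 2 pFF reads on the left and 12 on the right, and outside the COL1A1 candidate 5 and 16. There was 1 to the left of the COL3A1 candidate and 38 to its right, and 117 to the left of the COL5A2 candidate, both in the gap between this pair. The 20 kb to the right of the COL5A2 candidate held 38 pFF and 9 pEGC reads, and the 120 kb to its right 44 and 21. No further exon-like array followed there, and whether this candidate holds the start of its gene cannot be told from these files.

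By the 4-fold rule that led to the spans (at least 4-fold, at least 50 reads in the higher library, interval beyond 2-fold), stretches of reads joined over up to 200 bases were called higher in pFF in 2841 of 32206 cases with enough reads (8.82%). Of the 59 stretches inside the spans 52 were called: 5 of 5 in COL1A2, 3 of 3 in COL1A1, 17 of 19 in COL3A1 and 27 of 32 in COL5A2. Since the spans were made from called stretches, nothing is read from this count. The 7 not called had 14 to 46 pFF reads, below the minimum of 50, with ratios from 2.55 to 16.6. The stretch with the highest ratio had 0 pEGC reads and was set against the floor of 3 reads (interval from 12.86 up).

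The pEGC colonies grew on mouse STO feeder cells and were taken from tissue with somatic cells. In these files pig reads and any mouse reads placed on the pig genome cannot be told apart, and their parts in the pEGC levels were not tested.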

How the data were processed

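Per the labels' protocols, mRNA went through 2 rounds of poly(A) selection and a DNase step, was fragmented by hydrolysis and primed with random hexamers for cDNA. The authors deposited 1 line per aligned read (chromosome, start, end, strand; no header) for each of the 2 libraries. What aligned the reads, to which build, and how multiple matches were handled is not given in the sources used here. Coordinates are those of the files, with block starts written 1-based under the BED convention, so they may be off by 1 base. Spans, the collagen lengths and the 4-fold rule were chosen with earlier results of these data known. The plan fixed the block rule, the 5 lengths, the tolerance of 2 bases and the choice of named blocks. These were the most read, the widest and those with the highest and lowest ratio among blocks with at least 50 pFF reads. Ratios against the floor were included. The 0 to 4 base allowance, the windows and the trio were added after the widths had been seen. Gene lists in the plan could not be evaluated, since the files name no genes. A count of 0 was replaced by 3 reads. Each library had 14324517 reads, and the floor of 3 reads equals 0.237 RPM (pEGC) or 0.302 RPM (pFF). No genome sequence was used here, so none is printed. The block finder and the 4-fold rule were tested on simulated data. The simulated exons were read densely at every start position. In the blocks of the spans, from 39.4% (COL5A2) to 72.5% (COL1A2) of start positions had at least 5 starts. The test therefore does not show that block widths equal exon lengths in these data. Python 3.11.15, numpy 2.4.6, pandas 2.3.3, scipy 1.17.1 and matplotlib 3.10.9 were used.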

Additional observations from a re-analysis of the deposited data

How the results depend on the processing

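No alternative changed the direction of a library ratio. The first 4 below are scalings, which move all ratios by 1 factor, and counting positions once is not. In the order COL1A2, COL1A1, COL3A1, COL5A2, the ratios were 37.4, 220.6, 205 and 10.4 over all reads, 35.3, 208, 194 and 9.85 over reads in transcribed stretches, 60.3, 356, 331 and 16.8 with TMM scaling, 61.3, 362, 337 and 17.1 with a median of ratios, and 7.85, 31.7, 34.98 and 4.81 with each position and strand counted once. Reads inside blocks gave 14.35 for COL5A2, and the trio, added after the widths were seen, gave 324.5 for COL1A1, 327 for COL3A1 and 15.96 for COL5A2. With at least 20 starts per position, blocks fell from 43 to 23 in COL3A1 and from 38 to 18 in COL5A2. The number of blocks there thus depends on the starts required, and exons with fewer starts can go unseen. The share of collagen-like widths, 46.5%, was 5.10% with exact widths, 8.28% with any multiple of 9 and 63.7% with 0 to 4 bases added. With at least 10 starts per position, 0 of the 4 candidates in pEGC and 2 in pFF kept their place in the order per length. With blocks widened by 50 bases the reads between blocks were 3.54% (pEGC) and 2.02% (pFF) for COL1A2, 1.08% (pFF) for COL1A1, 2.13% (pFF) for COL3A1, and 8.90% (pEGC) and 3.27% (pFF) for COL5A2. With positions counted once they were 8.24% and 28.5% for COL1A2, 13.5% (pFF) for COL1A1, 22.3% (pFF) for COL3A1, and 21.7% and 23.7% for COL5A2, so the order of the libraries turned around; the cause was not tested. With the blocks of a span in 3 groups, the log2 of the leftmost over the rightmost ratio was -0.28 for COL1A1 and -0.49 for COL3A1 with positions counted once, against 0.21 and 0.39 with all reads, and -0.051 for COL5A2 with 2 groups in place of 3, against -0.34; the cause was not tested. Of 87 alternatives, 41 stayed within the limits of the reported value. No paired analysis was possible because each culture had 1 library, and leaving out a replicate was not possible for the same reason.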

Other observations

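One window of 20 narrow blocks outside the 4 spans also reached 11 blocks near a collagen length, on chromosome 15 from 71091682 to 71126663. It was found after the widths had been examined. It had 5365 pEGC and 150 pFF reads, the reverse of the 4 collagen candidates. Its gene is not known from these files.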
